A study of Mus musculus with 6 samples.

Results

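Malat1, Neat1, Gas5, Meg3, Snhg1, Snhg12, Snhg15 and Dancr are 8 long noncoding RNA genes, chosen by symbol from the 52459 gene symbols of the count table. All 8 had a row, and all 8 were among the 15380 genes that passed a filter on low counts. RNA sequencing was done on bone marrow derived macrophages from C57BL/6 mice, grown in complete RPMI medium with the myeloid growth factor GM-CSF. The 3 piceatannol libraries came from cells given this plant stilbene, an inhibitor of the kinase Syk, on day 7 and overnight, and the 3 control libraries from cells given vehicle in its place. Sources used here give neither dose nor vehicle. Whether replicate libraries stem from separate animals or cultures is also not stated, and p-values therefore cover only the spread between libraries, which may be technical.

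Long noncoding RNAs are transcripts that do not encode a protein and act, where a role is known, as RNA. Malat1 gathers in nuclear speckles, bodies rich in splicing factors. Neat1 is the scaffold of paraspeckles, nuclear bodies that hold RNA-binding proteins, and is made as a short transcript with a poly(A) tail and a long one without. Gas5, Snhg1, Snhg12, Snhg15 and Dancr are host genes of small nucleolar RNAs (snoRNAs), which lie in their introns and guide the chemical modification of ribosomal and other RNAs. The spliced RNAs of several hosts are known to reach the cytoplasm and to be degraded by nonsense-mediated decay, so "nuclear" is not a shared property of the 8 genes. RNA of whole cells was sequenced, and the data hold no measure of location.

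The 3′ ends of Malat1 and of the long Neat1 transcript are shown because they bear on how these RNAs can enter a library that selects poly(A) tails, as the TruSeq RNA kit named in the labels is known to do. Both ends are known to be cut by RNase P and protected by a triple helix between U-rich and A-rich blocks, in place of a tail. Capitals mark a U-rich block and the A-rich block complementary to it, found in both genes by their letters. Any other stretch that takes part in the helix is not marked. The windows are from GENCODE M21 transcripts on the minus strand of GRCm38. The Malat1 window lies at chr19:5795978-5796059 and the Neat1 end at chr19:5824708-5824807.
Malat1: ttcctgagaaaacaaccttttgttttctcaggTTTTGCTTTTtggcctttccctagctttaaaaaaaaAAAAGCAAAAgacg
Neat1, long: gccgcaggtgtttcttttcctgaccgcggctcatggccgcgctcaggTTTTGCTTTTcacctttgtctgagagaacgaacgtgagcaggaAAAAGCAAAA
The longest string shared by the 2 windows is 16 bases. The Malat1 window holds a run of 12 A, the longest in the 6983 bases of that transcript, while the longest run in the 20771 bases of long Neat1 is 7 A.

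The short Neat1 transcript, of 3004 bases, ends at chr19:5842307-5842366 with the poly(A) signal AATAAA (capitals) 14 bases before its last base.
Neat1, short: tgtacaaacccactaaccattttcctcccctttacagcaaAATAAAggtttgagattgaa
Counts are per gene, so the short and the long Neat1 transcripts cannot be separated here.

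Starts of the snoRNA hosts are shown because such genes are known for a terminal oligopyrimidine tract, a run of C and T at the first transcribed base that they share with ribosomal protein genes. The windows are from RefSeq on GRCm38.p6, cover 30 bases on each side of the annotated start, and carry in capitals the longest run of C and T that touches the 5 bases on either side of it. They lie at chr19:8723457-8723516 (Snhg1), chr4:132308648-132308707 (Snhg12), chr1:161035136-161035195 (the downstream of 2 Gas5 starts) and chr5:74093030-74093089 (Dancr) on the plus strand, and at chr11:6528731-6528790 (Snhg15) and chr19:5802643-5802702 (Malat1) on the minus strand.
Snhg1: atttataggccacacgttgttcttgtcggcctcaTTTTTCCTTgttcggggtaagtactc
Snhg12: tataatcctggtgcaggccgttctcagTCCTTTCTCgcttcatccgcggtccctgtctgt
Gas5: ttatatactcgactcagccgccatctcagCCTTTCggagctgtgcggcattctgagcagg
Snhg15: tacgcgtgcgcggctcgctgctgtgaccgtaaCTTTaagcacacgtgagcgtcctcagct
Dancr: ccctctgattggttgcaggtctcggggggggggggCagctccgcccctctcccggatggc
Malat1: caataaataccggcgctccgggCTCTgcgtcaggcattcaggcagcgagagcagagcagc
Runs were 9 bases in Snhg1 and Snhg12, 6 at the downstream Gas5 start and 3 at its upstream start, 4 in Snhg15 and in Malat1, and 1 in Dancr. Of 32851 RefSeq promoters of the same length, 6.89% had a run of at least 9 and 21% a run of at least 6, and the median run was 3. Of the 8 genes, 7 matched an entry of the RefSeq table, and Neat1 did not.

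Depth ranged from 33276569 to 49283203 counts in piceatannol libraries and from 43586270 to 58697084 in control libraries. Together the 8 genes took 0.341% ± 0.0418 of the counts in piceatannol libraries and 0.106% ± 0.0244 in control libraries (SD, n = 3 each). All 8 macrophage markers checked (among them Csf1r, Adgre1 and Lyz2) were detected, with summed levels of 13200 to 14670 CPM in piceatannol and 18600 to 22570 CPM in control libraries (2 rose and 6 fell). Here CPM is the normalised read count, scaled to a common library total with edgeR's TMM factors. Stromal markers were also present, at 665 to 752 CPM in piceatannol and 2591 to 2878 CPM in control libraries, and 7 of 10 fell and 0 rose. In bulk libraries, fewer cells of a type and less RNA per cell cannot be told apart. Neutrophil markers summed to 34 to 41.1 CPM in piceatannol and 254 to 600 CPM in control libraries, and 7 of 7 tested fell. Dendritic cell markers summed to 816 to 1015 CPM in piceatannol and 1585 to 1714 CPM in control libraries (6 of 7 tested fell). Endothelial markers summed to 413 to 493 CPM in piceatannol and 115 to 127 CPM in control libraries (3 of 4 tested rose), while Tek and Emcn had 0 to 2 counts in every library. Lymphoid markers stayed at or below 2.71 CPM and erythroid markers at or below 0.404 CPM in every library. By the rule for calls given below, 38.8% of all tested genes rose and 38.3% fell. The neutrophil genes Camp, Elane and Mpo had means of at most 0.18 CPM in piceatannol libraries, and the dendritic cell gene Siglech had 0. These genes needed their control libraries to pass the filter on low counts, which favoured a fall for them. The part of these cell types in the levels of the 8 genes was not tested.

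Of the 8 genes, 6 rose with piceatannol (Neat1, Malat1, Gas5, Snhg1, Snhg12 and Snhg15), 0 fell, and 2 (Meg3 and Dancr) did not pass the test. Calls were made by edgeR's quasi-likelihood test at an adjusted p (Benjamini-Hochberg, over the 15380 genes) below 0.05. By the same rule 77% of all tested genes changed, 38.8% upward and 38.3% downward, so a call by itself is common in this comparison. The median log2 fold change was 0.93 over the 8 genes and 0.01 over all tested genes. Of the 6 that rose, 4 did so at least 2-fold, which 17.5% of all tested genes did. All 3 piceatannol libraries lay above all 3 control libraries for the same 6 genes, and 39.9% of tested genes showed that order. None of the 8 lay wholly lower with piceatannol, as 39.2% of tested genes did.

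**Figure D1:**
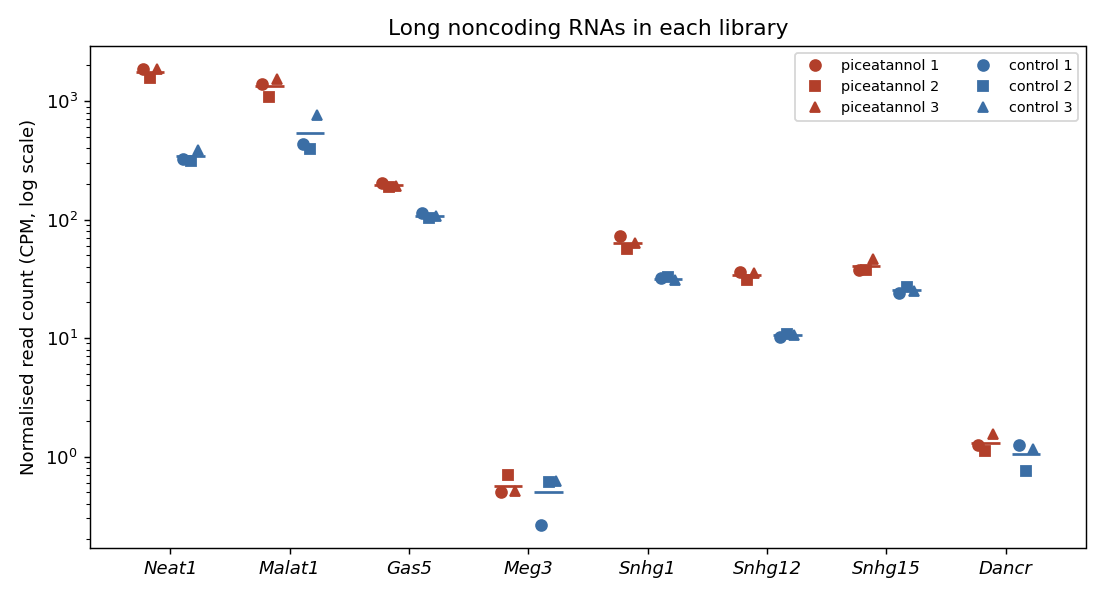
Normalised read count (CPM, log axis) of the 8 genes in each of the 3 piceatannol (red) and 3 control (blue) libraries, with bars at the group means. Levels are not scaled by length, so heights compare groups within a gene; 6 genes lie wholly higher with piceatannol, while Meg3 and Dancr overlap and Malat1 in control replicate 3 stands apart at 770 CPM.

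Neat1 (chromosome 19, 5824708 to 5845478, minus strand) had 1870, 1570 and 1876 CPM in the piceatannol libraries and 327, 311 and 389 CPM in the control libraries. The groups lay far apart, and the spread within each was small beside that gap. The rise was 5.18-fold, or 2.37 ± 0.09 on the log2 scale (SE; edgeR quasi-likelihood adjusted p = 6.24e-13). Of all tested genes, 95.6% had a smaller log2 fold change. Neat1 also kept this rise in each fit that left out 1 library, with log2 fold changes between 2.30 and 2.47.

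Malat1 (chromosome 19, 5795690 to 5802672, minus strand), whose gene lies near Neat1 on the same strand, had 1405, 1080 and 1549 CPM in the piceatannol libraries and 435, 395 and 770 CPM in the control libraries. The groups did not overlap, but control replicate 3 had 1.85 times the mean of the other control libraries. The log2 fold change was 1.33 ± 0.34 (SE; 95% interval 0.42 to 2.24; edgeR quasi-likelihood adjusted p = 0.0199), or 2.52-fold. In fits without the pairing of replicate numbers, this call was lost when 1 of 4 libraries was left out, while the log2 fold change stayed between 1.15 and 1.3. It was 1.3 without piceatannol replicate 1 (adjusted p = 0.0628, edgeR), 1.22 without piceatannol replicate 3 (0.0637), 1.20 without control replicate 1 (0.0681) and 1.15 without control replicate 2 (0.0531). Without control replicate 3 it was 1.69 and the call held. With the replicate number as a block and all 6 libraries it was 1.38 (edgeR adjusted p = 0.000195). The piceatannol library was the higher one in each of the 3 pairs, which any pairing gives where the groups do not overlap.

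Between the 2 RNAs, the ratio of Neat1 to Malat1 counts was 1.33, 1.45 and 1.21 in the piceatannol libraries and 0.751, 0.787 and 0.506 in the control libraries. Every piceatannol library had more Neat1 than Malat1 counts, and every control library had fewer. Counts are not scaled by length, so a ratio above or below 1 does not show which RNA was more abundant. In the FPKM values given below, which divide by gene length, Malat1 was above Neat1 in both groups. The means were 190 against 84.0 in piceatannol and 76.4 against 16.5 in control libraries. The mean log2 ratio was 0.41 ± 0.13 in piceatannol and -0.58 ± 0.35 in control libraries (SD, n = 3 each), a difference of 0.99, or 1.99-fold. An exact two-sided permutation test gave p = 0.1, the smallest that 3 against 3 libraries allow. The ratio needs no scaling between libraries. Leaving out control replicate 3 gave a difference of 0.79.

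The spread between libraries of one group differed widely among the 8 genes. In control libraries the coefficient of variation (SD as a percentage of the mean CPM) was 38.6% for Malat1 and 12.1% for Neat1, against 4.6% for Gas5, 3.07% for Snhg1, 2.39% for Snhg12 and 5.86% for Snhg15. Counting error alone would give 0.591% for Malat1 and 0.746% for Neat1, far below the spread seen. Over the 6066 tested genes with a mean of at least 32 CPM, the median coefficient was 4.43% in control libraries. Malat1 had the third highest, behind S100a9 (46.6%), a neutrophil granule gene, and Slco4a1 (39.8%), a transporter gene.

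In piceatannol libraries Malat1 varied by 17.9% and Neat1 by 9.87%, against a median of 5.11% over the same 6066 genes. Snhg1 (13.5%) and Snhg15 (12.9%) varied more than in the control libraries, Snhg12 varied by 8.01%, and Gas5 was again even, at 3.44%. Meg3 varied by 19.4% in piceatannol and 40.9% in control libraries, where counting error alone gives 20.9% in piceatannol and 19.6% in control libraries. Dancr varied by 16.2% in piceatannol and 25.3% in control libraries, with 13.5% and 13.4% from counting error in those groups. The low counts of Meg3 and Dancr thus limit how their spread can be read.

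**Figure D2:**
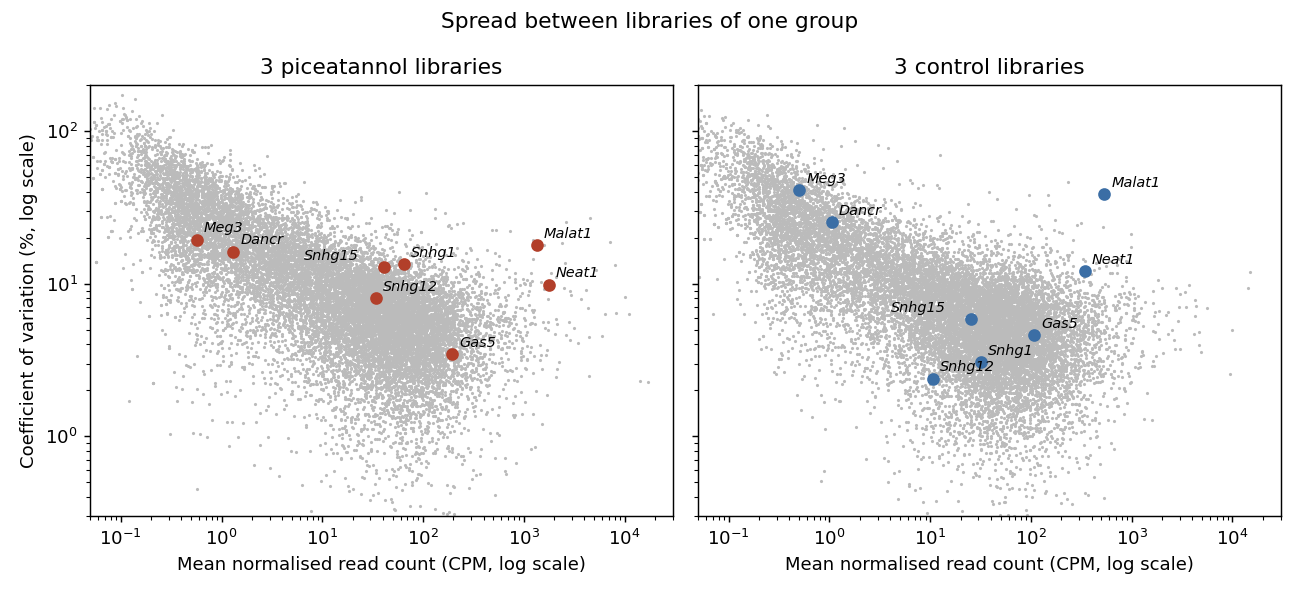
Coefficient of variation between the 3 libraries of a group (%, log axis) against the mean normalised read count (CPM, log axis), for piceatannol (left) and control libraries (right). Grey points are all tested genes and coloured points the 8 genes; Malat1 (17.9% in piceatannol, 38.6% in control) and Neat1 (9.87% in piceatannol, 12.1% in control) lie high among genes of like level in both panels.

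Genes high in control replicate 3 were listed because that library held the high Malat1 value, a choice that favours a high rank for Malat1. The other control libraries were not searched in this way. Over all genes, control replicates 1 and 3 were the closest pair (chi-square per degree of freedom 9.88). The pairs with control replicate 2 had 15.77 and 17.6. Among the 6066 genes of at least 32 CPM, 24 had a level in control replicate 3 at least 1.3 times the mean of the other control libraries, where the median gene had a ratio of 1. Malat1, at 1.85, had the highest ratio. Next came Oas2 (1.59) and Irf7 (1.58), interferon-stimulated genes, followed by Oasl2 (1.5), all named after their values were seen. Neat1 had a ratio of 1.22. Other noncoding RNAs had ratios on both sides of 1. The small nuclear RNA gene Rn7sk had 1.8, but at a mean of 1.16 CPM in control libraries, far below 32 CPM. Gm42418 had 1.39, and the mitochondrial ribosomal RNA genes mt-Rnr1 and mt-Rnr2 had 1.04 and 1. Gm26917 (0.926) and Rpph1 (0.84) were lower in control replicate 3. What lies behind these ratios was not tested.

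RNAs that are known to lack a poly(A) tail rose together with Neat1 and Malat1. Of 13 such genes listed, 11 were in the table and 6 were tested, and all 6 rose (median log2 fold change 3.58, against 0.01 over all tested genes). By the same rule 38.8% of all tested genes rose. Rn7sk, whose RNA restrains transcription elongation, had 32.6, 26.1 and 28.5 CPM in piceatannol libraries and 1.00, 0.820 and 1.64 CPM in control libraries (log2 fold change 4.62 ± 0.18, SE). Vaultrc5, a vault RNA gene, had a log2 fold change of 4.43. Its mean was 1.3 CPM in piceatannol and 0.0625 CPM in control libraries. Rmrp had 0.932 CPM in piceatannol and 0.141 CPM in control libraries. Vaultrc5 and Rmrp were thus near the floor in control libraries. They passed the filter on low counts only because of their piceatannol libraries, so the filter favoured a rise for them. The mitochondrial ribosomal RNA gene mt-Rnr1 had 3407, 2155 and 2349 CPM in piceatannol libraries and 233, 219 and 235 CPM in control libraries (3.53 ± 0.19). Rpph1, the RNA of RNase P, rose least (0.84). Each of these rises was past the threshold (adjusted p at most 9.54e-05, edgeR's quasi-likelihood test). Summed over the list, levels were 5722 to 9318 CPM in piceatannol and 584 to 605 CPM in control libraries. Most of this sum came from mt-Rnr1 and mt-Rnr2, so it says little about the other RNAs listed. Their mean levels were 2637 and 4519 CPM in piceatannol and 229 and 364 CPM in control libraries. The share of counts from mitochondrially encoded genes also moved, to between 1.87% and 2.65% in piceatannol libraries, against 0.777% to 0.866% in control libraries. The part of poly(A) selection or of RNA quality in the rises of Neat1 and Malat1 was not tested.

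**Figure D3:**
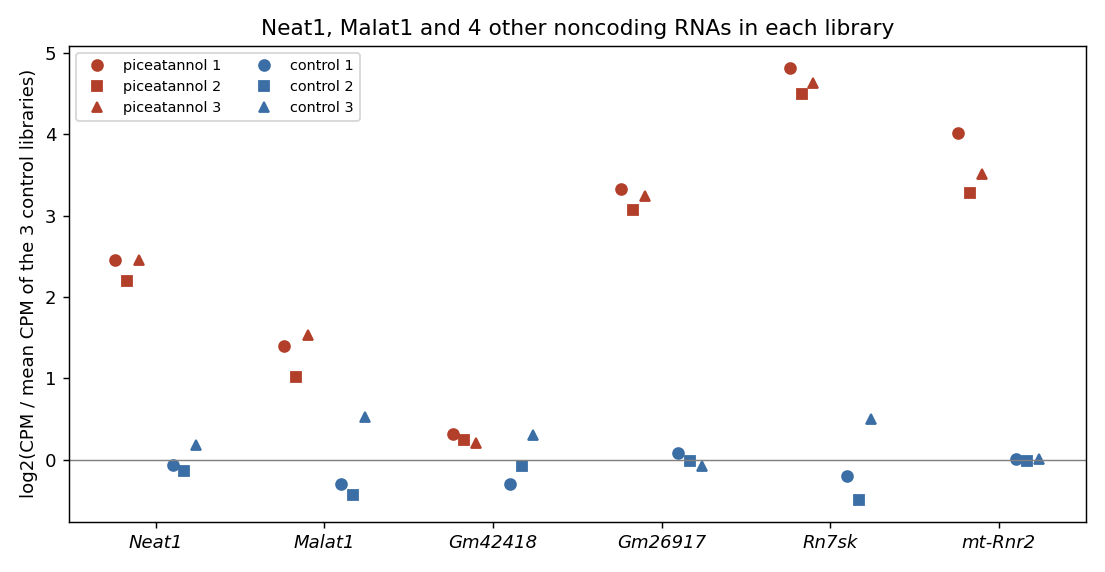
Level of Neat1, Malat1 and 4 other noncoding RNAs in each library, as log2 of CPM over the mean CPM of the 3 control libraries, for piceatannol (red) and control (blue). Neat1, Gm26917, Rn7sk and mt-Rnr2 lie far above all control libraries in the 3 piceatannol libraries, while control replicate 3 (blue triangle) is the highest control for Neat1, Malat1, Gm42418 and Rn7sk.

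Paraspeckle protein genes were called in both directions, at shares near those of all tested genes. Of 17 tested, 7 rose (41.2%), 7 fell (41.2%) and 3 did not pass, with a median log2 fold change of -0.04. Of all tested genes, 38.8% rose and 38.3% fell. Nono, which encodes a core paraspeckle protein that binds Neat1, had 77.5 ± 2.43 CPM in piceatannol and 144 ± 1.38 CPM in control libraries (SD, n = 3 each), a log2 fold change of -0.89. Hnrnpm, a splicing regulator gene, also fell (-0.69). Cpsf7, a subunit of the cleavage factor complex known to favour the short Neat1 end, rose (0.88), while Nudt21, another subunit, fell (-1.29). Sfpq, the other core partner of Nono, fell as well (-0.21). Of 12 nuclear speckle protein genes, 3 rose (25%), 6 fell (50%) and 3 did not pass (median -0.11). Among them were the splicing factor genes U2af2 at -0.72 and Srsf1 at -0.61 and the exon junction gene Rnps1 at 0.53.

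The snoRNA hosts Snhg12, Snhg1, Gas5 and Snhg15 rose in that order of size. Snhg12 (chromosome 4, 132308623 to 132311024, plus strand), with 5 annotated snoRNA loci inside it, had 36.3, 31.1 and 35.2 CPM in piceatannol libraries and 10.3, 10.8 and 10.6 CPM in control libraries. The groups lay well apart, and the rise was 3.24-fold (log2 1.70 ± 0.08, SE; edgeR quasi-likelihood adjusted p = 2.54e-13). Snhg1 (chromosome 19, 8723475 to 8726443, plus strand), the host of Snord22 and 7 other snoRNAs, had 73.2, 56.0 and 63.0 CPM in piceatannol libraries and 32.1, 32.5 and 30.7 CPM in control libraries. Its log2 fold change was 1.01 ± 0.08 (adjusted p = 1.79e-09 by the same test), and its control libraries lay within 1.06 times of each other.

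Gas5 (chromosome 1, 161034422 to 161038539, plus strand), named for its rise in cells that stop growing, hosts 10 annotated snoRNA loci. It had 202, 189 and 194 CPM in piceatannol libraries and 113, 103 and 107 CPM in control libraries. Both groups were tight, and the rise was 1.81-fold (log2 0.85 ± 0.06, SE; edgeR quasi-likelihood adjusted p = 5.13e-11). Its first 428 bases overlap Zbtb37 on the opposite strand, and since a strand setting is not given in the sources used here, reads there cannot be assigned to one gene. Zbtb37 itself had 12.9, 15.9 and 15.7 CPM in piceatannol and 11.4, 9.62 and 11.3 CPM in control libraries, far below Gas5.

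Snhg15 (chromosome 11, 6525591 to 6528760, minus strand), host of Snora9, had 37.8, 37.9 and 46.9 CPM in piceatannol libraries and 23.9, 26.8 and 25.0 CPM in control libraries. The rise was 1.62-fold (log2 0.70 ± 0.09, SE; edgeR quasi-likelihood adjusted p = 4.29e-07), with piceatannol replicate 3 the highest of the 6 libraries.

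Snhg15 and the downstream start of Gas5 both hold the cAMP response element TGACGTCA, the site of CREB and ATF factors, in the 300 bases of the RefSeq promoter window. The motif reads the same on both strands and was found in 1.79% of the 32851 promoters. Snhg15 also holds the E-box CACGTG, found in 7.15%, and 1 of 2 Meg3 starts holds TGACGTCA. Heat shock elements (found in 0.603% of promoters), antioxidant response elements (TGACNNNGC, 12.4%) and the AP-1 site (TGANTCA, 7.81%), searched on both strands, were not in any of the 9 windows of the 7 matched genes. These promoters are printed from GRCm38.p6 with TGACGTCA and CACGTG in capitals, for Gas5 at chr1:161034916-161035215 (plus strand) and for Snhg15 at chr11:6528711-6529010 (minus strand). A match of letters is a description, not a site in use.
Gas5: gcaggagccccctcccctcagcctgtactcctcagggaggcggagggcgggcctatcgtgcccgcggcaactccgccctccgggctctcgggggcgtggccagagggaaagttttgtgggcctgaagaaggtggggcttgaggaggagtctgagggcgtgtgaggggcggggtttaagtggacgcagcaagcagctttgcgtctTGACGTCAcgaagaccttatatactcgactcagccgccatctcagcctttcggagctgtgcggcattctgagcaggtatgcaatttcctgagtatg
Snhg15: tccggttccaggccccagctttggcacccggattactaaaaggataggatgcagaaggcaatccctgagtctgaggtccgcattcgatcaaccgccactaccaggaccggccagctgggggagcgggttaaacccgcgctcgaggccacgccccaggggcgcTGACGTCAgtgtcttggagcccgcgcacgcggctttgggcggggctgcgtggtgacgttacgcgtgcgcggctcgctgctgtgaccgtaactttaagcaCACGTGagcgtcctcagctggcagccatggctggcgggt

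Dancr, a host RNA first described for holding back cell differentiation (chromosome 5, 74093060 to 74095406), was barely expressed. It had 53, 37 and 75 counts in piceatannol libraries and 66, 33 and 69 counts in control libraries, or 1.31 ± 0.21 CPM in piceatannol and 1.06 ± 0.27 CPM in control libraries (SD, n = 3 each). The groups overlapped, and the log2 fold change of 0.30 had a 95% interval of -0.24 to 0.85 (edgeR quasi-likelihood adjusted p = 0.295).

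Meg3, a maternally expressed imprinted RNA of the Dlk1-Dio3 domain (chromosome 12, 109541001 to 109571726), was near the floor. It had 21, 23 and 25 counts in piceatannol libraries and 14, 27 and 37 counts in control libraries, with a log2 fold change of 0.17 and a 95% interval of -0.62 to 0.95 (edgeR quasi-likelihood adjusted p = 0.694). The interval leaves out a 2-fold change in either direction but not a smaller one. Rian and Mirg, the RNAs downstream of Meg3, had at most 12 and 1 counts in any library, Dlk1 at most 5, and Rtl1 was at 0 in all 6. Dio3, a deiodinase gene that inactivates thyroid hormone, had 0.242 ± 0.131 CPM in piceatannol and 8.70 ± 0.43 CPM in control libraries (SD, n = 3 each), a log2 fold change of -5.24 (edgeR quasi-likelihood adjusted p = 6.33e-14). Stromal cells are a known source of Meg3, and their markers had the levels given above (7 of 10 fell and 0 rose). The part of stromal cells in the Meg3 counts was not tested.

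Host RNAs outside the 8 genes mostly rose as well. Of 16 listed, 14 were in the table and 12 were tested, of which 8 rose, 1 fell (Snhg4, -1.05) and 3 did not pass, with a median log2 fold change of 0.59. The share that rose was 66.7%, against 38.8% of all tested genes. Long noncoding RNA genes in general leaned the same way, as 42.5% of the 1170 tested rose, with a median of 0.48. Snhg5 had 43.0 ± 4.32 CPM in piceatannol and 15.7 ± 0.36 CPM in control libraries (SD, n = 3 each, as for the next genes). Zfas1 had 75.3 ± 3.36 CPM in piceatannol and 44.1 ± 0.29 CPM in control libraries. Snhg11 had 15.0 ± 1.93 CPM in piceatannol and 3.22 ± 0.80 CPM in control libraries. The small RNAs themselves had almost no counts. Of 23 snoRNA symbols annotated inside the 5 hosts and present in the table, 22 were at 0 in all libraries, and the other one, in Snhg12, had 28 counts over the 6 libraries.

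Genes of the proteins that bind snoRNAs moved the other way. Of 8 tested core proteins of the 2 snoRNP classes, 7 fell, 0 rose and 1 (Nop56, 0.01) did not pass, with a median log2 fold change of -1.22. The share that fell was 87.5%, against 38.3% of all tested genes. Dkc1, encoding the pseudouridine synthase dyskerin, had 7.04 ± 0.80 CPM in piceatannol and 30.9 ± 2.74 CPM in control libraries, a log2 fold change of -2.14. Nhp2 (-1.16) and Nop10 (-1.15), of the same H/ACA particle, and Fbl (-1.48), the methyltransferase of the C/D particle, also fell. Each of the 7 had an adjusted p of at most 2.96e-06 (edgeR's quasi-likelihood test).

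**Figure D4:**
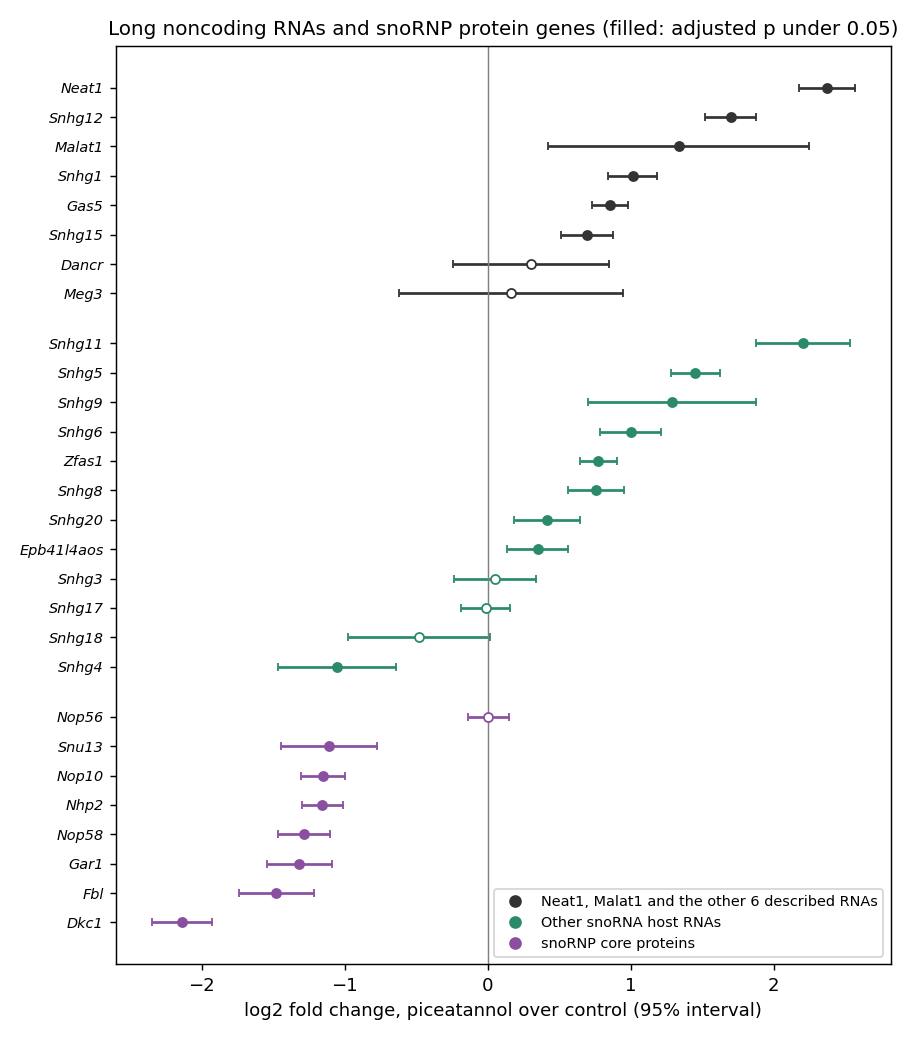
Log2 fold change of piceatannol over control with its 95% interval for the 8 genes (black), 12 other snoRNA host RNAs (green) and 8 snoRNP protein genes (purple), filled where the adjusted p was under 0.05. Most host RNAs lie right of 0 and 7 of 8 protein genes left of it, from -1.11 (Snu13) to -2.14 (Dkc1).

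Of 14 nonsense-mediated decay factors, whose pathway degrades spliced host RNAs, 7 rose, 3 fell and 4 did not pass (median 0.14). Thus 50% rose and 21.4% fell, against 38.8% and 38.3% of all tested genes. Smg6 (0.58), an endonuclease gene, rose, as did Smg1 (1.19), the kinase of the pathway, and Eif4a3, of the exon junction complex, fell (-0.54). Upf1, the central helicase, did not pass (-0.09, edgeR quasi-likelihood adjusted p = 0.17).

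Among other named long noncoding RNAs, 14 of 23 tested rose (60.9%), 5 fell (21.7%) and 4 did not pass (median log2 0.67). Of all tested genes, 38.8% rose and 38.3% fell. Gm26917, a predicted gene, had 560 ± 51.8 CPM in piceatannol and 60.3 ± 3.28 CPM in control libraries (SD, n = 3 each, as for the next genes). Mir22hg, a microRNA host, had 102 ± 4.23 CPM in piceatannol and 39.9 ± 0.685 CPM in control libraries. Mir17hg, host of the Mir17 cluster, had 9.17 ± 0.638 CPM in piceatannol and 2.24 ± 0.0626 CPM in control libraries. Over all 1170 tested long noncoding RNA genes of the annotation, 42.5% rose and 20.9% fell, with a median of 0.48.

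Neighbouring protein-coding genes moved to differing degrees. Slc3a2, encoding the heavy chain of amino acid transporters, starts 105 bases from Snhg1 on the opposite strand, and had 2179, 1988 and 2194 CPM in piceatannol libraries and 426, 450 and 447 CPM in control libraries (log2 fold change 2.27 ± 0.07, SE). Snhg1 itself had 1.01. On the other side of Snhg1, Wdr74 (0.24) did not pass. Frmd8, 4223 bases from Neat1, did not pass (0.09). Near Gas5, Serpinc1 rose (3.42), with 2.63 ± 0.22 CPM in piceatannol and 0.238 ± 0.13 CPM in control libraries (SD, n = 3 each). Trnau1ap, 738 bases from Snhg12, rose by 0.42, and Rab42 (0.75) did not pass. Myo1g, next to Snhg15, fell (-0.96), and Ccm2 (-0.09) did not pass. Around Dancr, Usp46 fell (-1.07) and Rasl11b rose (1.14, a call lost without piceatannol replicate 1), and Dlk1 and Rtl1 beside Meg3 had too few counts to test.

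Levels between genes can be compared only per length, in the deposited FPKM values. In piceatannol libraries the order was Malat1 (190 ± 33.3 FPKM), Neat1 (84.0 ± 7.99), Gas5 (51.0 ± 1.61), Snhg15 (29.6 ± 3.76), Snhg1 (21.2 ± 2.80), Snhg12 (20.7 ± 1.58), Dancr (0.547 ± 0.0862) and Meg3 (0.0333 ± 0.00577), as mean and SD of 3 libraries. Snhg1 and Snhg12 overlapped in range there. In control libraries the order was Malat1 (76.4 ± 29.3 FPKM), Gas5 (28.7 ± 1.26), Snhg15 (18.6 ± 1.14), Neat1 (16.5 ± 1.95), Snhg1 (10.7 ± 0.354), Snhg12 (6.49 ± 0.165), Dancr (0.45 ± 0.114) and Meg3 (0.0233 ± 0.0115), and Snhg15 and Neat1 overlapped. Neat1 thus stood above Gas5 and Snhg15 in piceatannol libraries and below Gas5 in control libraries. The gene length behind its FPKM, worked out from counts and FPKM, equals the full 20771 bases of the long transcript, so reads of the 3004-base short transcript are spread over a longer length and its level per base is understated. For Snhg12 the length behind the FPKM (1626 bases) is shorter than its annotated exons (2402 bases).

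The genes with profiles most like each of the 8 were found by the root mean square difference of centred log2 CPM over the 6 libraries, among 10240 or 10241 named genes of at least 2 mean log2 CPM. Nearest to Neat1 were Tnfrsf23, Fam117a and Ptger2, within 0.065 to 0.079. Malat1 had no close match, its nearest being Tmem82, Tmc4 and Mir142hg at 0.202 to 0.208. Gas5 was matched within 0.017 to 0.026 by Cbfa2t2, Rsrc2 and R3hdm1. For Snhg1 the nearest were Fbxo8, Hook1 and Akirin2 (0.047 to 0.053), for Snhg12 Mrps6, Tnfrsf12a and Cipc (0.033 to 0.046), and for Snhg15 Pqlc2, Sirt3 and Coa7 (0.048 to 0.058). Dancr was nearest to Bbs7, Dqx1 and Zfp607a (0.107 to 0.118), and Meg3 to Lrrc56, Zfp524 and Usmg5 (0.274 to 0.284).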

How the data were processed

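For each library the authors deposited unnormalised counts of reads (whole numbers by gene symbol). They also deposited FPKM, which divides by gene length and library size. The submitters' processing notes name bcl2fastq, STAR, featureCounts, DESeq2 and the builds mm10 and GRCm38, with no versions. Neither annotation nor strand setting is given in the sources used here. Input was 1 µg of total RNA for a TruSeq library, per the labels' protocols. Genes were filtered with filterByExpr (minimum count 10), scaled with TMM and tested with edgeR 4.0.16 (R 4.3.3) without a covariate. The SE is the log2 fold change divided by the square root of F. The test was checked on simulated counts. Alternatives used limma 3.58.1 and DESeq2 1.42.0. Counting errors are Poisson and ignore PCR copies, for want of molecular identifiers.

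Replicate numbers come from the sample titles. Over 10614 genes, deviations from the group means of libraries with the same number correlated at 0.16 to 0.257, against -0.205 to 0.003 for other numbers. Each group was centred on its own mean, so positive values for same numbers push the others down, and this contrast is partly built in. The numbers were taken to pair libraries in the replicate block only. The main test left the pairing out. Pairs of libraries within a group differed beyond sampling noise (chi-square per degree of freedom 9.88 to 18.13).

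The 8 genes and all gene lists were chosen with earlier results of these data known. Named genes are the 8, the 3 list members of smallest p past the threshold, the nearest protein-coding genes, and the 3 most alike profiles. Some genes that this rule names are not reported here. Other genes were named after their values were seen. Positions are from GENCODE M21 (91.7% of symbols matched).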

Additional observations from a re-analysis of the deposited data

How the results depend on the processing

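The rises of Neat1, Snhg1 and Snhg12 passed under all 20 alternatives run, with log2 fold changes of 2.28 to 2.47, 0.91 to 1.10 and 1.53 to 1.76. Those were other scalings, filters, tools, FPKM values, thresholds, the replicate block and each library left out. Gas5 (0.81 to 0.91) and Snhg15 (0.58 to 0.75) failed only the demand for a 2-fold change. Malat1 (1.15 to 1.69) failed at a threshold of 0.01 and in 4 of the 6 fits that left out 1 library, where its log2 fold change was 1.15 to 1.3 and its adjusted p reached 0.0681 (edgeR). With the replicate block its log2 fold change was 1.38 (adjusted p = 0.000195, edgeR), the block called 6 of the 8 genes upward and 0 downward, and it changed no call among the 8. The sign-flip test of paired Neat1 to Malat1 ratios gave 0.99 with an exact p = 0.25, the smallest that 3 pairs allow. Meg3 and Dancr passed under no alternative in which they were tested, and Meg3 had -0.15 without control replicate 1. Counts of all genes moved by over 1.5 times only with a 2-fold demand, to 2686 higher and 2548 lower, against 5960 and 5886. Leaving out the RNAs that lack a poly(A) tail together with mitochondrially encoded genes, chosen after the data were seen, also gave 6 rises among the 8 genes. That setting kept 15362 of 15380 genes and a median log2 fold change of 0.011, as in the main fit, so it could hardly move these calls. It is no test of the part of poly(A) selection. List counts moved most with the 2-fold demand, where 0 in place of 7 paraspeckle, 0 in place of 3 nuclear speckle and 1 in place of 7 decay genes rose, and 4 in place of 8 other hosts. In the same setting, 1 in place of 7 paraspeckle, 0 in place of 6 nuclear speckle, 0 in place of 3 decay genes and 1 in place of 5 other named RNAs fell. With at least 5 CPM in 3 libraries, which tests fewer genes, 8 in place of 14 other named RNAs and 3 in place of 6 RNAs lacking a tail rose, and 3 in place of 5 other named RNAs and 0 in place of 1 other host fell. Without a filter, 2 other hosts fell. With 1 library left out, snoRNA hosts outside the 8 genes that fell numbered 2 in place of 1 without piceatannol replicate 3 or control replicate 1, and decay factors that fell numbered 1 in place of 3 without control replicate 2. For Meg3 and Dancr the 95% intervals still hold changes smaller than 2-fold.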

Other observations

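Imprinted long noncoding RNAs other than Meg3 moved in opposite directions, and are named here after their values were seen. H19, expressed from the maternal allele beside Igf2, had 0.451, 0.424 and 0.246 CPM in piceatannol libraries and 3.63, 3.62 and 3.27 CPM in control libraries, a log2 fold change of -3.25 (adjusted p = 2.38e-10, edgeR's quasi-likelihood test). Kcnq1ot1, an antisense RNA of the neighbouring imprinted domain, rose by 2.04 (adjusted p = 1.94e-08), and Airn, antisense to Igf2r, by 2.05 (adjusted p = 4.21e-07). Reads of these RNAs and of the genes they overlap cannot be separated without a strand setting.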
